A study of Drosophila melanogaster with 6 samples.

Results

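The left arm of chromosome 2 (2L) carried 2045 of the 13016 peaks of Insensitive (Insv) that were mapped by chromatin immunoprecipitation and sequencing (ChIP-seq) in Drosophila Kc167 cells. Members were all peaks listed on 2L, so the choice used the chromosome name and no measured value. The arms X, 3L and 3R, with 2490, 2017 and 3293 peaks, served as the comparison. The samples were 3 Insv ChIP libraries and 3 input libraries. All came from Kc167, a female cell line derived from late-stage embryos, of genotype se/e, and the rabbit polyclonal antibody against Insv had been pre-adsorbed with early embryos. A cell line is 1 kind of cultured cell and stands for no particular tissue of the fly. The deposited list gives a start, an end and a peak-caller score for each peak on FlyBase release 5. It holds no value of a single library, so replicate error and depth are unknown, and each p-value below compares stretches of the genome within 1 list.

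Insv is a BEN domain protein that binds DNA directly and acts as a transcriptional corepressor, and in the fly it is known for limiting Notch target genes during the development of sensory organs. The insv gene itself is on 2L in the RefSeq table of release 6. Arm 2L runs from the telomere, at the low coordinates, to the centromere of chromosome 2, where the sequence passes into heterochromatin, the compact and repeat-rich form of chromatin. Coordinates below are 1-based on release 5, and no gene was assigned to a peak, because the gene table used here is of release 6.

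Insv peaks on 2L were concentrated at the telomeric tip and in the centromere-facing part of the arm, with a long sparse stretch between. From the tip, the first complete 1 Mb bins held 221, 95 and 88 peaks. The 8 bins from 3 to 11 Mb held 33, 33, 38, 79, 31, 58, 29 and 63. The bins from 11 to 14 Mb then held 129, 118 and 203 peaks. Further on, counts alternated between low and high bins, with 42, 61, 151, 19, 131, 170, 124 and 107 peaks in the bins from 14 to 22 Mb. The bin beyond 22 Mb held 22 peaks. It counts as incomplete because the last peak of 2L, ending at 22941795, lies inside it, and it is left out of the means and tests of density. The densest bin thus held 11.6 times as many peaks as the sparsest, 221 (exact Poisson 95% interval 193 to 252) from 0 to 1 Mb against 19 (11.4 to 29.7) from 17 to 18 Mb. The 6 densest bins held 1005 of the 2023 peaks in complete bins, or 49.7%.

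The sparse stretch was 9 consecutive bins long when bounded by the arm's own mean of 92.0 peaks per bin. It ran from 2 to 11 Mb and held 452 peaks, 22.1% of the arm, at 50.2 peaks per bin against 121 in the other complete bins. Its peaks had a median score of 13.22, against 17.14 on the rest of 2L, and a median width of 455.5 bp against 526 bp. Scores above 50 were given to 17 of its 452 peaks, against 146 of 1593 on the rest of the arm. Peaks with no other peak within 5 kb made up 16.6% of it, against 6.34% of the rest. The stretch was picked for its low counts, so these values describe it and were not tested. Arm 3L had a run of like length, 10 bins from 9 to 19 Mb below its own mean. Its peaks shared most of these traits, with a median score of 13.47 against 15.415 on the rest of 3L. Their median width was 397 bp against 484 bp, and 20.2% stood alone against 7.11%. Scores above 50 were nearly as frequent in the 3L run (23 of 455 peaks) as on the rest of 3L (88 of 1562). The longest runs below the arm's mean spanned 2 bins on X and 4 bins on 3R. In these shorter runs the median score was not lower than on the rest of the arm (16.32 against 16.32 on X, 16.47 against 15.52 on 3R). The run on X still had narrower peaks, 456 against 569 bp in the median, and more lone ones, 12.4% against 5.76%. On 3R the run had wider peaks, 609.5 against 532 bp, and 5.39% stood alone against 6.18%.

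**Figure D1:**
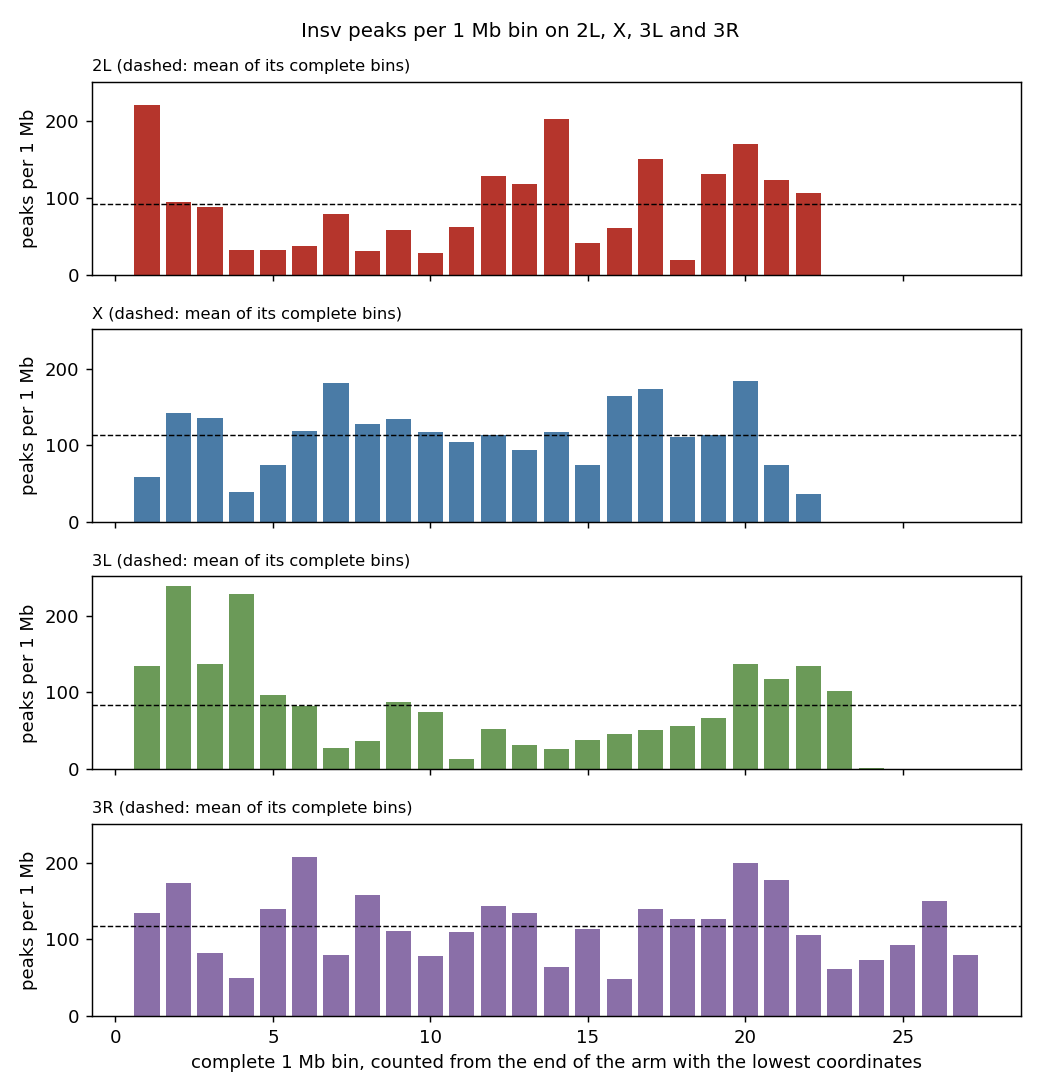
Insv peaks per complete 1 Mb bin (vertical axis, number of peak midpoints) on 2L, X, 3L and 3R, in bins counted from the low-coordinate end of each arm; the dashed line is the arm's mean. On 2L the third to the 11th bin all lie below the mean of 92.0, while the first bin holds 221 peaks.

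Over the whole arm, peak density on 2L was lower than on X and 3R and higher than on 3L, and none of these differences exceeded the variation between bins. The 22 complete bins of 2L held 92.0 ± 58.5 peaks (SD over bins), against 113 ± 41.9 in 22 bins of X, 84.0 ± 61.7 in 24 bins of 3L and 117 ± 44.0 in 27 bins of 3R. The ratio of 2L to the other arms together was 0.88 (95% interval 0.67 to 1.14, quasi-Poisson regression, n = 95 bins, adjusted p = 0.52). From the same n = 95 bins, the ratio to single arms was 0.81 for X (0.59 to 1.12, adjusted p = 0.39), 1.09 for 3L (0.79 to 1.53, adjusted p = 0.71) and 0.78 for 3R (0.58 to 1.06, adjusted p = 0.32). The intervals thus leave room for differences of some size in both directions. Relative to its mean, the spread between bins was 63.6% on 2L, against 37.1% on X, 73.4% on 3L and 37.5% on 3R.

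Peaks covered 1604 kb, or 7.01% of the 22.87 Mb between the first and the last peak of 2L, against 9.86% on X, 5.95% on 3L and 9.38% on 3R. They were mostly narrow. The median width on 2L was 502 bp (95% interval 478 to 527), with quartiles of 310 and 912 bp and extremes of 201 and 6631 bp. The median score was 16.05 (15.52 to 16.72), with quartiles of 11.51 and 25.85 and extremes of 6.24 and 230.86. The score comes from the authors' peak caller, and since no source says what kind of score it is, it is compared only within the list. Differences in log2 score below are on the caller's own scale and are no measure of how much more Insv was bound. Of the 2045 peaks, 1285 shared their score with another peak of the arm.

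The strongest Insv peaks of 2L included both peaks that stood alone and peaks inside dense groups. The peak from 14490090 to 14491294 scored 230.86 and was 1205 bp wide, in a region of 3 peaks. The second, from 18706394 to 18710334, scored 225.82 and was 3941 bp wide, among 23 peaks. Ranks 3 and 4 stood alone. They lay from 13059958 to 13060688 (score 217.4, width 731 bp) and from 14409277 to 14410443 (score 210.41, width 1167 bp). The one at rank 3 was only just past the limit of 5 kb, with its nearest neighbour 5293 bp away. The one at rank 4 had no other peak within 16319 bp on either side. No other peak of the arm scored above 200. Ranks 5 to 7 were the peaks from 16524874 to 16526782 (score 181.22, among 14 peaks), from 489369 to 491480 (180.62, among 68) and from 13512677 to 13515095 (176.59, among 10). Ranks 8 to 10 were those from 18943152 to 18945058 (147.82, among 21), from 7028504 to 7029704 (143.52, among 8) and from 19578669 to 19582549 (140.62, among 7). Of these 10 peaks 8 lay beyond 13 Mb, where 50.4% of all peaks of the arm lay. The limit of 13 Mb was not set in advance, so this count is only a description. The 9th was the only one in the sparse stretch. Of the 22 peaks with a score above 100, 13 lay beyond 13 Mb and 4 in the sparse stretch, so in this wider set the share beyond 13 Mb was closer to that of all peaks.

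Score and width went together on 2L, with a Spearman correlation of 0.78, against 0.77 on X, 3L and 3R together. The 100 strongest peaks of 2L had a median width of 2094.5 bp, against 502 bp for the arm. Even so, the 5 widest peaks were not among the 10 strongest. The widest pair sat in the same dense group near the tip, from 559318 to 565948 (6631 bp, score 81.88) and from 547342 to 553505 (6164 bp, score 105.37). The next lay from 19491603 to 19497713 (6111 bp, score 41.05), from 10732701 to 10738552 (5852 bp, score 42.2) and from 1164343 to 1170030 (5688 bp, score 61.48). Wider than 2000 bp were 154 peaks of 2L, or 7.53% (exact 95% interval 6.42 to 8.76), where 6.99% of the peaks of X, 3L and 3R together passed that width. The single arms lay on both sides of 2L, with 8.39% on X, 6.05% on 3L and 6.50% on 3R. Of these 154 peaks 110 lay in dense groups of 10 or more peaks, 44 lay outside, and none stood alone. Their scores ran from 19.39 to 225.82, with a median of 48.05. In turn, 31 peaks of the arm scored above 50 while narrower than 1000 bp, the narrowest of them 420 bp wide.

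**Figure D2:**
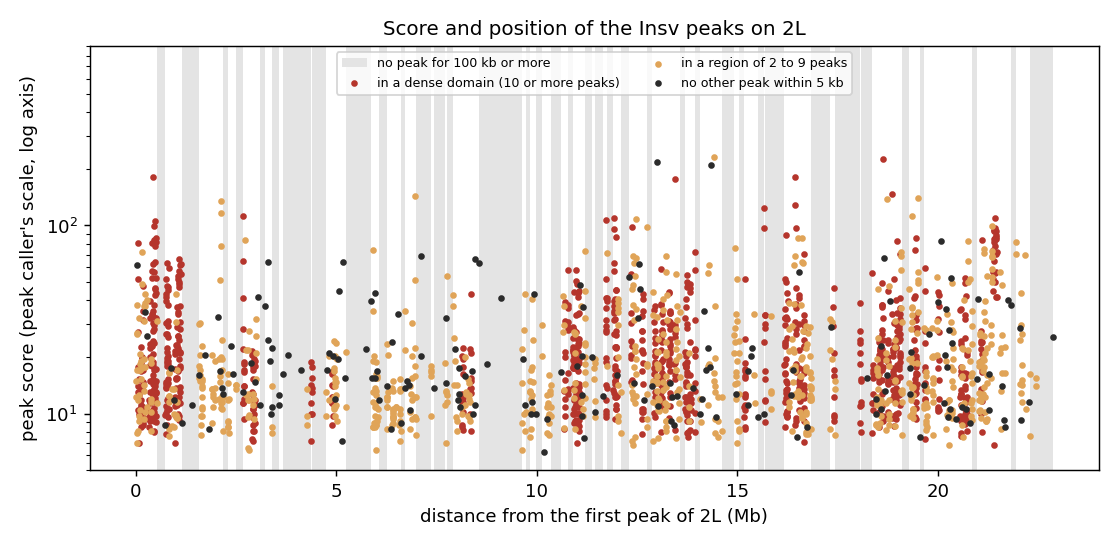
Each of the 2045 Insv peaks of 2L by its distance from the first peak of the arm (Mb) and its score (log axis), coloured by the size of the region it lies in; grey bands are the 49 stretches of 100 kb or more without a peak. Dense domains (red) are frequent at the tip and beyond 10 Mb, and the 4 scores above 200 all lie in the centromere-facing part of the arm.

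At like score, peaks of 2L were narrower than those of X and 3R. With the peaks of the 4 arms sorted by score into 4 equal groups, the lowest group had a median width of 274 bp on 2L, against 282 bp on X, 274 bp on 3L and 281 bp on 3R. In the second group the medians were 404 bp on 2L, against 422, 368 and 421 bp on X, 3L and 3R. In the third group, with scores of about 15.8 to 24.27, the median was 604 bp on 2L (95% interval 559 to 647), against 678.5 bp on X (639 to 722), 673.5 bp on 3L (613 to 716) and 726.5 bp on 3R (689 to 760). In the group with the highest scores it was 1272 bp on 2L (1201 to 1357), against 1433 bp on X (1364 to 1526), 1157 bp on 3L (1070 to 1312) and 1305 bp on 3R (1242 to 1372). The gap between 2L and 3R was widest in the third group, where their intervals did not overlap. In each of the other groups the intervals of 2L and 3R overlapped. Those of 2L and X were apart only in the group with the highest scores.

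A linear model of log2 width with log2 score as a covariate, with errors clustered by 1 Mb bin, put 2L below the other arms together by 6.36% (log2 difference -0.095, 95% interval -0.15 to -0.044, n = 99 bins, adjusted p = 0.0027). The difference was -0.13 on the log2 scale against X (-0.19 to -0.065, adjusted p = 0.0012), -0.12 against 3R (-0.18 to -0.071, adjusted p = 0.00037) and -0.0048 against 3L (-0.071 to 0.062, adjusted p = 0.95), again with n = 99 bins. These 3 calls were the only ones among the 28 contrasts of 2L with other arms. The peak caller sets width as well as score, and its part in this difference was not tested.

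**Figure D3:**
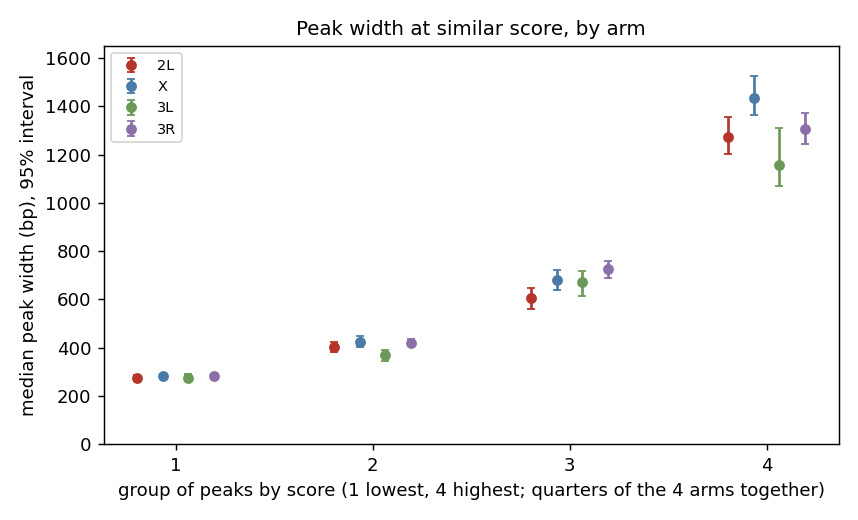
Median width in bp (points, with 95% intervals from order statistics) of Insv peaks on 2L, X, 3L and 3R, in 4 groups of equal size by score. In the third group the 2L median of 604 bp is the lowest of the 4 arms, and in the fourth group 2L lies at 1272 bp and X at 1433 bp.

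Without the score in the model, width and score of 2L did not pass the test against any arm. The log2 difference in width was -0.036 against the other arms together (-0.13 to 0.062, n = 99 bins, adjusted p = 0.65) and -0.13 against X (-0.24 to -0.018, adjusted p = 0.12). It was 0.10 against 3L (-0.028 to 0.24, adjusted p = 0.32) and -0.050 against 3R (-0.15 to 0.050, adjusted p = 0.52), with the same n = 99 bins. The call for width against X depended on a small part of the arm. Without the 34 peaks of a stretch near the centromere-facing end, described further on, the log2 difference from X was -0.16 and passed the threshold. The log2 difference in score was 0.062 against the other arms together (-0.037 to 0.16, n = 99 bins, adjusted p = 0.40). It was -0.00080 against X (n = 99 bins, adjusted p = 0.99), 0.11 against 3L (adjusted p = 0.23) and 0.078 against 3R (adjusted p = 0.32). Scores above 50 were given to 163 peaks of 2L, or 7.97% (exact 95% interval 6.83 to 9.23), where 5.44% of the peaks of X, 3L and 3R together exceeded 50. By arm that share was 6.55% on X, 5.50% on 3L and 4.56% on 3R. Leaving out the same stretch, 133 of 2011 peaks, or 6.61% (5.57 to 7.79), remained above 50 on 2L, close to the share on X.

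Insv peaks of 2L came in dense domains, defined as 10 or more peaks whose facing edges lie within 5 kb of the next. The arm had 59 such domains, with a median length of 25.9 kb and a range of 12.3 to 111 kb. They held 1033 peaks, or 50.5% of the arm (exact 95% interval 48.3 to 52.7), on 7.86% of its span, where 48.3% of the peaks of X, 3L and 3R together lay in such domains. The difference was 2.24 percentage points (-7.75 to 12.2, linear model with clustered errors, n = 99 bins, adjusted p = 0.76). With the same n = 99 bins it was -1.86 points for X (-12.7 to 9.02, adjusted p = 0.82), 10.6 for 3L (-4.82 to 26.0, adjusted p = 0.38) and 0.23 for 3R (-10.7 to 11.1, adjusted p = 0.99). Distances from peak to peak did not pass the test either. The median distance to the next midpoint was 1967.5 bp on 2L (1871.5 to 2069.5), against 1844 bp on X, 1985.5 bp on 3L and 1752.75 bp on 3R. The log2 difference from the other arms together was 0.078 (-0.15 to 0.30, n = 99 bins, adjusted p = 0.65). Against X it was 0.11 (n = 99 bins, adjusted p = 0.53), against 3L -0.090 (adjusted p = 0.70) and against 3R 0.16 (adjusted p = 0.38).

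Neighbouring domains of 2L were 151 kb apart in the median, against 128 kb on X, 117 kb on 3L and 205 kb on 3R. To say where they lay, domains less than 500 kb apart are listed as 1 group, a limit above the median spacing that joins most of them, so the grouping itself is no result. At the tip, 9 domains with 213 peaks lay between 0.12 and 1.19 Mb. Further in, 6 domains with 96 peaks lay from 10.76 to 11.13 Mb, 12 with 234 peaks from 11.79 to 14.03 Mb and 7 with 111 peaks from 15.25 to 16.75 Mb. Towards the centromere, 12 domains with 197 peaks lay from 18.13 to 20.11 Mb and 5 with 84 peaks from 20.64 to 21.54 Mb. Across the sparse stretch domains were few, and from 4981319 to 8206942, over 3226 kb, there was none. That interval still held 163 peaks, of which 33 stood alone, in regions of at most 9 peaks, and its highest score was 143.52.

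The domain with the most peaks, from 467753 to 579138, held 68 peaks over 111 kb. Its peaks covered 70.4% of it and had a median score of 18.6, with 14 peaks above 50. The next in size ran from 11985006 to 12063041 (41 peaks, median score 22.6, top score 109.42) and from 1102216 to 1186753 (39 peaks, median score 24.6, top score 66.02). Domains of 34, 31 and 29 peaks lay from 13161002 to 13211565, from 11091175 to 11134730 and from 840015 to 887714. Their top scores were 58.64, 44.67 and 63.49. The domains in rank 8 to 10, from 19029527 to 19072931, from 13364130 to 13399573 and from 18676421 to 18715340, held 26, 25 and 23 peaks, with top scores of 82.4, 44.3 and 225.82. A large number of peaks thus did not go with a very strong one in each case. In 26 of the 59 domains the strongest peak was also the widest (44.1%), against 36.8% of the domains of X, 38.8% of 3L and 35.5% of 3R, a difference that was not tested.

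Peaks inside dense domains scored higher and were wider than the other peaks of 2L, and for score it was the domains of 20 or more peaks that stood higher. In all dense domains the median score was 17.55 (16.92 to 18.25), against 14.54 (13.97 to 15.26) outside, and the median width was 578 bp (530 to 627), against 456 bp (431 to 477). The log2 difference was 0.21 for score (0.091 to 0.33, adjusted p = 0.0090) and 0.32 for width (0.18 to 0.46, adjusted p = 0.0012), in a linear model with clustered errors (n = 23 bins). By size of region, median scores were 20.54 (18.85 to 22.43) in the 15 domains of 20 or more peaks and 15.91 (14.86 to 16.86) in the 44 domains of 10 to 19, against 14.74, 13.97 and 15.9 in regions of 5 to 9, of 2 to 4 and of 1 peak. Median widths in the same order were 677, 499.5, 453.5, 475.5 and 424.5 bp. Domains of 10 to 19 peaks had about the same median score as lone peaks, and 4.97% of their peaks scored above 50, against 7.95% of lone peaks and 13.8% in the domains of 20 or more. Of the 62 peaks above 50 in the domains of 20 or more, 23 lay in 1 domain of 27 peaks, described further on. Values of this class without that domain were not computed. On X, 3L and 3R together the step was absent, with median scores of 16.59 in domains of 20 or more and 16.86 in those of 10 to 19. Higher medians inside dense domains than outside were also seen on X (score 17.4 against 15.52, width 635.5 against 488 bp), on 3L (17.22 against 13.72, 589 against 414.5 bp) and on 3R (16.31 against 14.99, 575 against 507 bp). Joining goes by facing edges, which lie closer together where peaks are wide, and wide peaks of the arm tend to score higher. The part of joining in the differences in width and in score was not tested. Among the strongest 50% of peaks, with regions formed anew, neither difference was past the threshold (log2 differences of 0.21 and 0.28). With peaks joined within 10 kb the difference in score, 0.15, was not either. The 34 peaks of the stretch near the centromere-facing end include that domain of 27 peaks. Without these 34 the differences between all dense domains and outside were 0.18 and 0.29 and both kept their call.

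**Figure D4:**
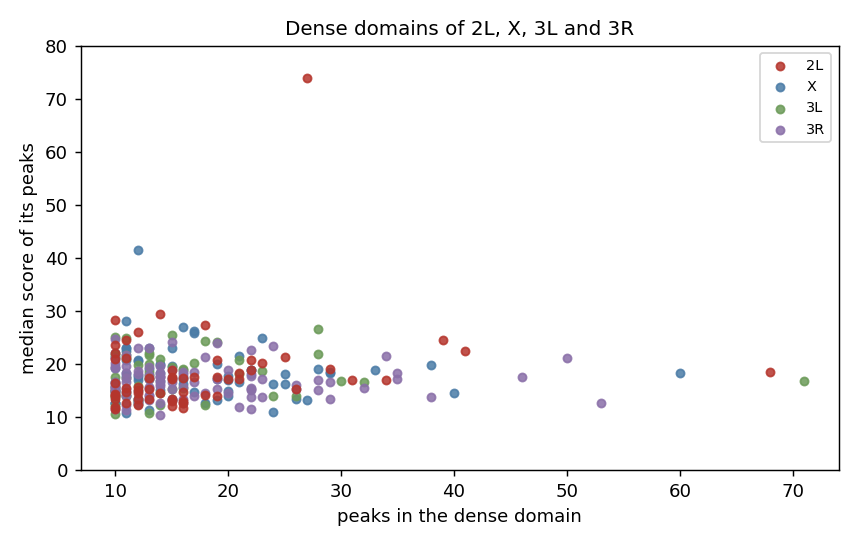
Dense domains of 2L, X, 3L and 3R, by the number of peaks they hold (horizontal axis) and the median score of those peaks (vertical axis). All but 1 domain of 2L have a median score at or below 29.5, and the remaining one, with 27 peaks, lies at 73.9.

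One domain of 2L stood apart in strength and regularity, and it was picked after its values were seen. It ran from 21451108 to 21543483 and held 27 peaks over 92.4 kb, 23 of them with a score above 50. Its median score was 73.9, where the next highest domain of 2L had 29.5 and the highest domains of X, 3L and 3R had 41.5, 26.7 and 24.8. Its median peak width of 2756 bp compares with at most 1586 bp in the domains of those 3 arms. A region of 7 similar peaks, from 21417781 to 21440801, lay 10306 bp before it. Together these 34 peaks covered 69.3% of 126 kb. All but 1 had scores from 41.7 to 109.99, and the exception was a peak of 232 bp with a score of 6.8.

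The wide peaks in this stretch were nearly equal in width and spacing. Of the 34 peaks 15 were wider than 3000 bp, and these measured 3405 to 3951 bp (median 3871 bp) with scores of 58.45 to 99.72. Where 2 such peaks followed each other, which happened 10 times, their midpoints were 5012 bp apart in the median, with extremes of 4839.5 and 5098.5 bp and an SD of 91.9 bp. The unmarked intervals between them were 939 to 1425 bp long. Elsewhere on 2L, 43 of 2011 peaks (2.14%) were wider than 3000 bp. Neighbouring pairs of them numbered 5, with midpoint distances from 3470 to 5168 bp and an SD of 778 bp. On X there were 6 such pairs (SD 1433 bp), on 3R 2 and on 3L none. Over all neighbours within the stretch, wide or not, midpoints lay 992 to 12615.5 bp apart. Some narrower peaks formed close pairs, such as 21456142 to 21458662 with 21458715 to 21460024, 52 bp apart. Pairs also started at 21501640 (103 bp apart) and 21506679 (83 bp apart), and the wide peaks beside them started at 21496596 and 21511738. The peaks from 21536305 on lay 436 to 1469 bp apart. Whether such a pair spans the same unit as a wide peak was not tested. A repeating unit of about equal length is thus described here only for the 15 wide peaks where they follow each other. Their lower width limit was set at 3000 bp, and the regularity was not tested.

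The stretch contributed 30 of the 163 peaks of 2L with a score above 50 and 22 of the 100 strongest. The centromere-facing part of 2L is known to carry the histone gene cluster, a tandem array of repeated units with the genes of the core and linker histones. In the release 6 gene table, genes 3267 to 3405 of the 3508 on 2L in order form a run in which 119 of 139 entries are histone genes or pseudogenes. Whether the stretch of peaks coincides with that cluster was not analysed here, since the releases were not mixed. The treatment of reads that match several places is not stated, and in repeated sequence it bears on both score and position.

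**Figure D5:**
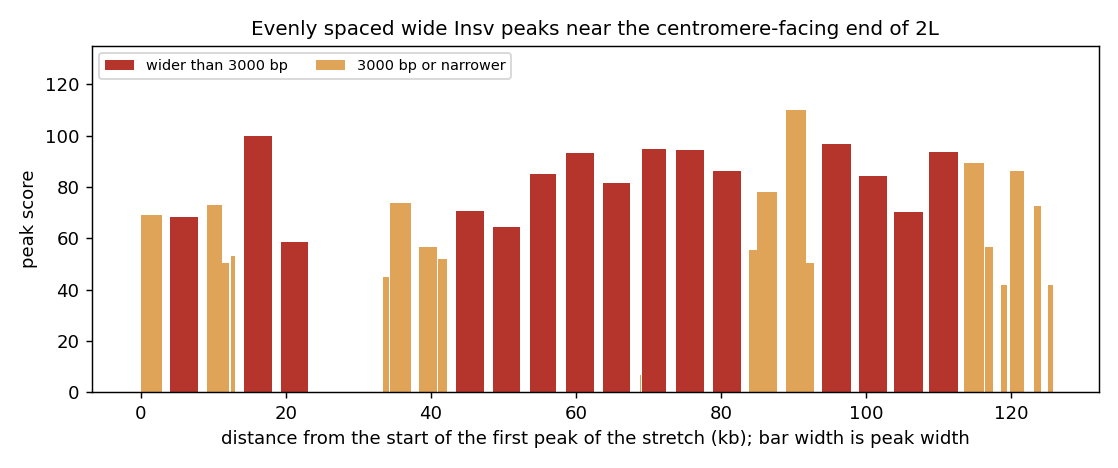
The 34 peaks of the stretch from 21417781 to 21543483 on 2L, by distance from the start of its first peak (kb) and score, with each bar as wide as its peak; peaks wider than 3000 bp are red. The 15 red bars have scores of 58.45 to 99.72, and neighbouring ones are 5012 bp apart in the median.

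Stretches without a peak took up about as large a part of 2L as of 3L. There were 49 intervals of 100 kb or more between neighbouring peaks, and they added up to 10.3 Mb or 44.9% of the span. On X, 3L and 3R such intervals made up 38.2%, 44.1% and 33.9%. The longest on 2L ran from 17500639 to 18132060, over 631 kb. Then came the intervals from 9176520 to 9696962 (520 kb), from 5306825 to 5799676 (493 kb), from 16910294 to 17379849 (470 kb) and from 22528448 to 22941484 (413 kb). The interval from 22528448 lies next to the centromere-facing end and is closed by the last peak of the arm. The others in the longest 10 were those starting at 8825621, 4460856, 15915197, 3863170 and 14689329, of 306 to 350 kb. Few peaks in an interval need not mean little Insv there, because neither depth nor the share of the sequence to which reads could be mapped is known.

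Some of the long intervals adjoined each other. The intervals of rank 2 and 6 were parted by 1 peak, from 9176063 to 9176519, which was 457 bp wide and scored 41.41, the only peak in 871 kb. Likewise the intervals of rank 1 and 4 were parted by 19 peaks within 121 kb, with scores of 7.72 to 46.64, in a window of 1222 kb. Over the arm, the 91 peaks that bordered an interval of 100 kb or more had a median score of 13.97 (12.8 to 16.32), against 16.2 (15.52 to 16.86) for the other 1954. Of these 91 peaks 7 scored above 50, against 156 of the 1954.

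Peaks that stood alone, with no other within 5 kb, numbered 176 on 2L. Their share was 8.61% (exact 95% interval 7.43 to 9.91), where 7.12% of the peaks of X, 3L and 3R together stood alone. The difference was 1.49 percentage points (-1.37 to 4.36, linear model with clustered errors, n = 99 bins, adjusted p = 0.52). It was 2.54 points against X (n = 99 bins, adjusted p = 0.31), -1.46 against 3L (adjusted p = 0.65) and 2.50 against 3R (adjusted p = 0.31). Their median score was 15.9 (14.08 to 17.14) and their median width 424.5 bp (371 to 467). Scores ran from 6.24, the lowest of the arm, to 217.4, and 14 of them were above 50. After the pair that held ranks 3 and 4 of the arm, the strongest lone peaks lay from 20148276 to 20148695 (score 83.18, 420 bp wide), from 7188142 to 7189023 (68.88, 882 bp) and from 18732491 to 18733249 (66.98, 759 bp). The first of these 3 had no neighbour within 41614 bp, while the nearest neighbour of the second lay 5198 bp away.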

How the data were processed

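Insv was mapped by ChIP-seq in the Kc167 line (3 ChIP samples, 3 inputs), after formaldehyde cross-linking and sonication per the labels' protocols. The authors deposited 1 list of peaks. Per the file headers, it is on FlyBase release 5 and comes from MACS, and its score is the peak caller's. The submitters' processing notes name CASAVA 1.7.0.2 and 1.7.0.3, BWA, MACS2 and build BDGP5. The threshold, the use of the input, the handling of duplicate and multiply matching reads and the pooling of replicates are not stated in the sources. Weak sites below the threshold are therefore missing, and a deeper experiment could have called more.

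From the list, width, midpoint (no summit is given), distances and regions were computed. Peaks were joined where facing edges lay within 5 kb, and a dense domain holds 10 or more peaks. Counts per complete 1 Mb bin were fitted by quasi-Poisson regression. A bin was complete where the last peak of its arm ended beyond it, so completeness was set by the peaks and not by the length of the sequence. Other measures were fitted by least squares over all 9845 peaks of 2L, X, 3L and 3R, with errors clustered over 99 bins of 1 Mb. Benjamini-Hochberg adjustment covered all 30 contrasts, and the threshold was 0.05. Neighbouring bins can be alike, so these p-values may be too small. Intervals of shares (Clopper-Pearson) and of medians (order statistics) treat peaks as independent and cover counting error only. Peaks named on 2L are the 10 strongest, the 5 widest and the 5 strongest that stand alone; domains and intervals named are the 10 largest. The members and lists were chosen with earlier results of these data known. The count fit and the least-squares fit without a covariate were run on simulated data with independent bins. Likeness between neighbouring bins and the fit with score as a covariate were not simulated. Python 3.11.15, numpy 2.4.6, scipy 1.17.1, pandas 2.3.3, statsmodels 0.14.6 and matplotlib 3.10.9 were used. Peaks on 2R, 4 and the scaffolds were not compared, and no sequence is shown.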

Additional observations from a re-analysis of the deposited data

How the results depend on the processing

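The 30 tested differences were computed again under 12 other settings, 3 of them chosen after seeing the data, 212 values in all, and 196 kept both direction and side of the threshold. The narrower width of 2L peaks at equal score than on X, on 3R and on the other arms together kept its call under all 8 settings run for it. In the linear model, log2 differences were -0.14 to -0.076 against the other arms together (adjusted p at most 0.040), -0.19 to -0.11 against X and -0.18 to -0.098 against 3R. Against 3L, in the same model, they were -0.025 to -0.00032 and had no call under any of these settings (adjusted p at least 0.63). Width against X without the score passed the threshold without the 2 Mb next to the centromere-facing ends (log2 difference -0.17) and without the stretch of evenly spaced wide peaks (-0.16). Dense domains of 2L lost their call among the strongest 50% of the peaks for score (0.21) and width (0.28), and with joining within 10 kb for score (0.15). Restricting to the strongest 50% also turned round 6 differences that had no call either way. These were score against X (0.047), distance to the next peak against the others together (-0.052) and 3R (-0.042), share in domains against X (7.79 points), and share alone against the others together (-0.49) and 3R (-0.53). The share in domains against 3R turned to -0.66 points without the largest domain of each arm, -2.22 with domains of 20 or more peaks and -0.26 without the stretch of wide peaks, and against X to 0.89 with joining within 2 kb. Density against 3L was 0.94 with peaks within 5 kb merged. The causes were not tested. No other score and no annotation was tried. No paired analysis was possible because no library has values of its own in the list. How deep the libraries were is not known, which limits what can be said of weak or missing peaks.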
